A study of Homo sapiens with 6 samples.

Results

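The 40 genes described here encode cytosolic translation factors: the proteins that start, extend and end polypeptide synthesis on the ribosome. They were chosen by a fixed list of 40 Ensembl gene IDs with their symbols, and each matched exactly 1 of the 62492 features in the deposited table. The values are ribosome footprint counts from WPMY-1, an immortalised human prostate stromal myofibroblast line. There were 3 control libraries (shcontrol, genotype TRMT61A wildtype) and 3 knockdown libraries (sh61A, genotype TRMT61A knockdown), both made with short hairpin RNAs in the same line. TRMT61A is the catalytic subunit of the enzyme that places 1-methyladenosine (m1A) in tRNA, and the study asked how its loss acts on translation. The labels name 1 hairpin against TRMT61A. They do not say that replicates are separate cultures, so a p-value here weighs only library-to-library spread, part or all of which may be technical. Because IDs are paired with names for these 40 genes alone, the level of TRMT61A and the markers of the cell type were not analysed here.

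Translation begins when a small ribosomal subunit, carrying the initiator tRNA on eIF2 and surrounded by eIF1, eIF1A, eIF3 and eIF5, is brought to the capped mRNA end by the eIF4F complex. The subunit then scans for a start codon, where eIF5 makes eIF2 hydrolyse GTP and eIF5B joins the large subunit. Elongation factors deliver each aminoacyl-tRNA (eEF1A) and move the ribosome along (eEF2), release factors end the chain at a stop codon, and ABCE1 splits the ribosome for another round. Many mRNAs of this machinery begin with a C followed by a run of C and T, the terminal oligopyrimidine start, through which growth signals are known to set their translation.

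Footprints on 2 of the 37 translation factors that could be tested fell in the knockdown libraries, and none rose, at an adjusted p under 0.05 (edgeR quasi-likelihood test, adjusted over all features tested). EIF4A2, the second isoform of the eIF4A helicase that unwinds mRNA near the cap, fell by 1.42 on the log2 scale (SE 0.28), to 0.373 of the control level. EIF5, the factor that triggers GTP hydrolysis at the start codon, fell by 0.98 (SE 0.23), to 0.507 of the control level. The other 35 tested factors, among them all tested elongation factors, eIF3 subunits and release factors, did not pass, with adjusted p from 0.0922 to 0.999. The 2 calls are 5.41% of the tested factors, against 3.12% of all 11653 features tested and 8.71% of the most abundant 20% of those features, where 24 of the 37 lie. All the calls were falls, against background shares of 1.48% of features called higher and 1.64% called lower. The count is therefore near the background for features of this abundance. The plot of fold changes by role gives each value with its interval.

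**Figure D1:**
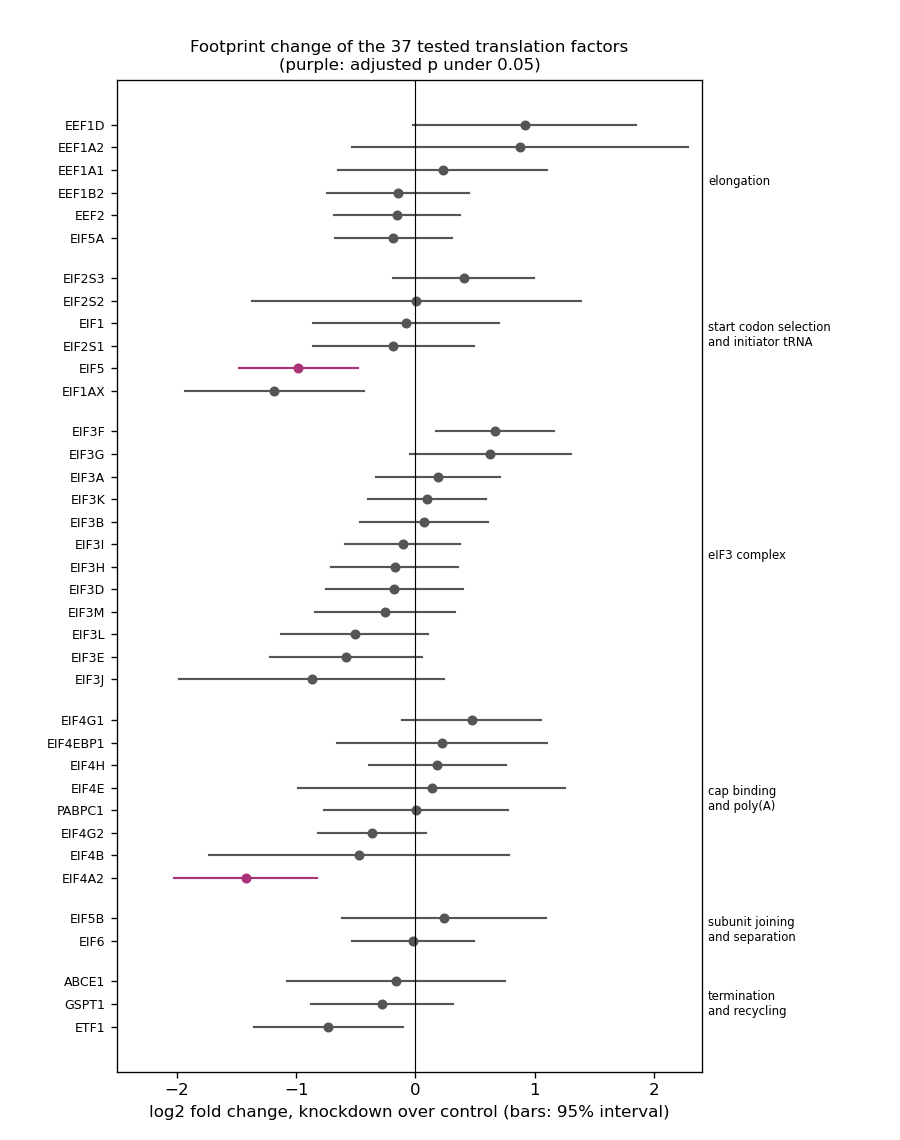
Log2 fold change of footprints, knockdown over control, for the 37 tested translation factors in 6 role groups, with 95% intervals from the edgeR fit (3 control and 3 knockdown libraries). EIF4A2 and EIF5, in purple, passed an adjusted p of 0.05, and most other intervals span 0.

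The median log2 fold change over the 37 factors was -0.11, against -0.0047 over all features tested. Of the 37, 16 had a positive and 21 a negative value. The 95% interval of 18 factors lay wholly within a 2-fold change in either direction. These intervals hold for this fit and its scaling, and weigh only library-to-library spread. For the other 19 the interval reached past a 2-fold change on at least 1 side, and it was widest for EEF1A2, at 2.82 log2 units. In 14 of these 19 it also held 0, and in EIF4A2, EIF5, EIF1AX, EIF3F and ETF1 it did not, before any adjustment for multiple tests. The 3 knockdown libraries lay wholly above the 3 control libraries for 2 factors (5.41%) and wholly below for 6 (16.2%). Over all features tested these shares were 12.2% and 12.7%. Among the most abundant 20% of those features, where 24 of the 37 factors lie, 439 of 2330 lay wholly above and 427 wholly below. The factors' counts are therefore not read as an excess in either direction.

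The first bases of the transcripts are shown because the oligopyrimidine start is the sequence feature this gene class is best known for. RefSeq promoter windows (GRCh38.p14) matched 30 of the 40 factors by symbol, 8 of them with several start sites. A start was counted when its first base is C and at least 4 further bases in a row are C or T, read on the gene's own strand only. Of the 30 factors, 10 had such a start (33.3%), against 5.14% of the 27305 genes in the same table. Each line gives 20 bases before the start and 20 from it. Capitals mark the run of C and T from the first base, or the first base alone where there is no such run. EIF4A2, which fell, and EIF3F, at a value above 0, both have the run, whereas EIF5, EIF1AX and ETF1 do not.
EEF2, chr19:3985444-3985483, minus strand: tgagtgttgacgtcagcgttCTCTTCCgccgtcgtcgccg
EEF1A1, chr6:73521013-73521052, minus strand: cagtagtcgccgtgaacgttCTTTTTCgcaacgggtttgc
EIF3D, chr22:36529147-36529186, minus strand: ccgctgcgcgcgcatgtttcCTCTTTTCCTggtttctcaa
EIF3F, chr11:7987317-7987356, plus strand: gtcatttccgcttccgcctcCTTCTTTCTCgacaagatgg
EIF2S3, chrX:24054936-24054975, plus strand: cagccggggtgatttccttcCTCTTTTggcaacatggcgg
EIF4A2, chr3:186783557-186783596, plus strand: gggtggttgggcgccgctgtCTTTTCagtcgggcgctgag
EIF5, chr14:103334217-103334256, plus strand: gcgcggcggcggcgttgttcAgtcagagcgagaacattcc
EIF1AX, chrX:20141819-20141858, minus strand: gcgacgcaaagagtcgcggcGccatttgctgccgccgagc
ETF1, chr5:138543217-138543256, minus strand: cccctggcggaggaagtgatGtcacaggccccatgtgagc

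Factors with and without the oligopyrimidine start overlapped in their values. The 10 factors with it had a median log2 fold change of -0.15 and ranged from -1.42 (EIF4A2) to 0.66 (EIF3F). The 17 tested factors whose listed starts lacked it had a median of -0.17 and ranged from -1.18 (EIF1AX) to 0.47 (EIF4G1). Each set held 1 called gene. These are annotated starts, and the starts used in WPMY-1 were not analysed here.

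Libraries held 6771455 to 17752247 counts, with knockdown libraries 1.98 times as deep on average. The 40 factors together took 21389 to 28998 counts in the control libraries and 33570 to 45137 in the knockdown libraries. As a share of a library that is 0.349% ± 0.071 in control against 0.266% ± 0.021 in knockdown (SD, n = 3 each). The 50 most abundant features took 64.8% ± 5.1 of control and 71.6% ± 1.7 of knockdown counts, and outside them the factors' share was 0.985% ± 0.063 and 0.934% ± 0.027 (SD, n = 3 each). The summed level scaled by TMM, edgeR's trimmed mean of M-values, was 3125 ± 202 CPM (counts per 1000000 of the scaled library) in control and 2933 ± 77 in knockdown. The groups overlapped on this scale, with 2900 to 3289 CPM against 2845 to 2986. Levels below are TMM-scaled CPM of footprints, not divided by gene length, so they are set against each other only within a gene. A footprint level joins how much mRNA there is with how densely ribosomes sit on it, and these were not separated here, since the RNA columns were not used. In bulk lysates fewer expressing cells and less RNA per cell cannot be told apart.

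Among the cap-binding and poly(A) factors, EIF4A2 (ENSG00000156976.17_7) had 52.6, 60.6 and 64.3 CPM in control libraries 1 to 3. In knockdown libraries 1 to 3 it had 21.9, 28.5 and 15.9 CPM. Every knockdown library was below every control library by a wide margin. The log2 fold change was -1.42 (95% interval -2.02 to -0.82), and the adjusted p in edgeR was 0.0178. EIF4A2 stayed past the threshold in all 12 alternatives of test, scaling, filter, depth or replicate block that kept the 6 libraries. The largest adjusted p of these was 0.0416 in edgeR, with the replicate block. It also passed narrowly in edgeR without control library 1 (0.0486) and without knockdown library 2 (0.0494). When single libraries were dropped, EIF4A2 missed the threshold in 4 of 6 fits: without control libraries 2 or 3 (adjusted p = 0.0948 and 0.0924) and without knockdown libraries 1 or 3 (0.0631 and 0.0658), at -1.41, -1.36, -1.42 and -1.23.

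**Figure D2:**
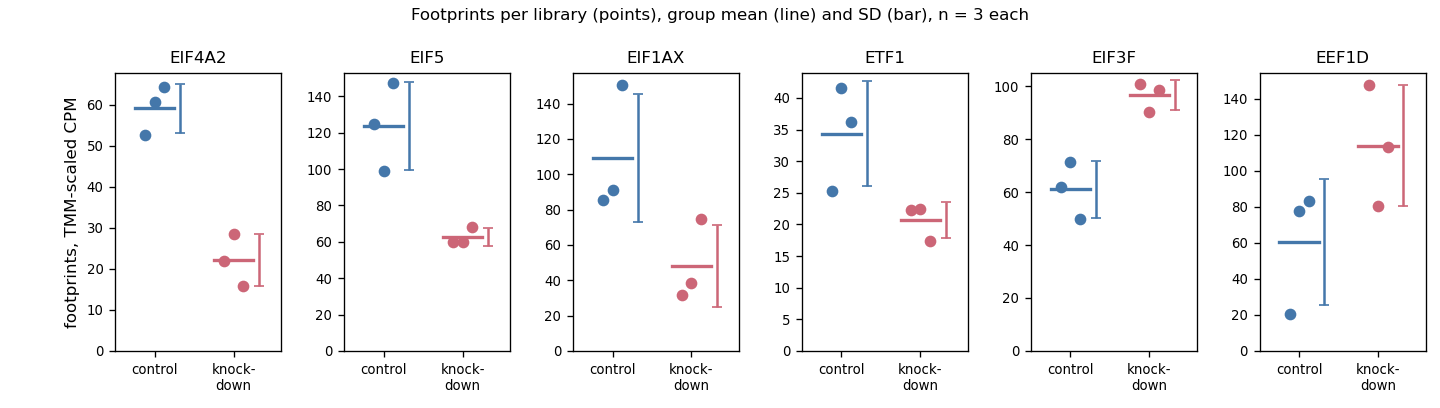
TMM-scaled footprint CPM of 6 translation factors in each library (points), with group means (lines) and SD (bars), n = 3 each. EIF4A2, EIF5, EIF1AX and ETF1 lie lower in every knockdown library than in any control library and EIF3F lies higher, whereas the EEF1D groups overlap because knockdown library 2 (80.6 CPM) is below control library 3 (83.5 CPM).

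The scaffold that eIF4A binds, EIF4G1 (ENSG00000114867.21_5), had 78.9, 105 and 158 CPM in control and 152, 147 and 175 CPM in knockdown, with overlapping groups. Its log2 fold change was 0.47 ± 0.27 (SE), adjusted p = 0.436 in edgeR. In each library the EIF4A2 count could be set against the EIF4G1 count, a ratio that no library scaling touches. It was 0.667, 0.576 and 0.407 in control and 0.144, 0.194 and 0.0907 in knockdown, with no overlap. This pair was chosen after its values had been seen and is given as a description. Other pairs were computed as well. The ratios of EIF4G2 to EIF4G1 and of EIF5 to EIF5B also had no overlap between groups. Those of EEF1A2 to EEF1A1, EIF4EBP1 to EIF4E and EIF1AX to EIF1 overlapped. The related scaffold EIF4G2, which lacks the binding site for eIF4E and serves other forms of initiation, had 264, 209 and 224 CPM in control and 179, 185 and 177 CPM in knockdown. Its groups did not overlap either, yet at -0.36 ± 0.21 (SE) it did not pass (adjusted p = 0.438 in edgeR).

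The cap-binding protein EIF4E was shallow, with 45 to 165 counts per library, and stood at 7.0 ± 1.6 CPM in control against 7.7 ± 3.0 in knockdown (SD, n = 3 each). Its inhibitor EIF4EBP1, which holds eIF4E away from eIF4G until it is phosphorylated, stood at 14.8 ± 7.8 and 17.2 ± 2.4 CPM. The eIF4A helpers EIF4H and EIF4B stood at 131 ± 33 against 149 ± 36 CPM and 9.7 ± 7.3 against 7.0 ± 1.5 CPM. PABPC1, which coats the poly(A) tail and contacts eIF4G, stood at 109 ± 50 and 109 ± 40 CPM. None of these 5 passed, and all their groups overlapped. The direction of EIF4B was set by 1 library, since its log2 fold change was -0.47 with all libraries and 0.30 without control library 2, which held 17.8 CPM against 3.7 and 7.7 in the others.

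Among the factors for start codon selection and the initiator tRNA, EIF5 (ENSG00000100664.11_5) had 125, 98.8 and 148 CPM in control libraries 1 to 3. In knockdown libraries 1 to 3 it had 60.0, 59.9 and 68.3 CPM. The knockdown values lay close together and all below the control values. The log2 fold change was -0.98 (95% interval -1.48 to -0.48), with an adjusted p of 0.0415 in edgeR. This call was near the threshold. Dropping any 1 of the 6 libraries lost it, at adjusted p from 0.0866 without control library 2 to 0.167 without control library 3, while the log2 fold change stayed between -1.12 and -0.84. It passed in 10 of the 12 alternatives that kept all 6 libraries. One of those that lost it scaled libraries on the summed counts of the translation factors themselves (-0.89, adjusted p = 0.0625 in edgeR).

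EIF1AX (ENSG00000173674.11_5) encodes eIF1A, which with eIF1 holds the small subunit in its scanning form. It had 85.6, 90.8 and 151 CPM in control and 31.4, 38.2 and 74.7 CPM in knockdown. The groups did not overlap, but each held 1 library, the one numbered 3, well above its other two. The log2 fold change of -1.18 (95% interval -1.93 to -0.43) did not pass in edgeR (adjusted p = 0.0922). It did pass in 6 of 18 alternatives, among them DESeq2 (0.0112), limma voom (0.0368), edgeR without a low-count filter (0.00167), edgeR with a stricter filter (0.034) and edgeR without knockdown library 3 (0.0396, at -1.64).

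The other members of this group showed no separation. EIF1, the start codon proofreader, had 38.9, 33.1 and 29.2 CPM in control and 52.7, 21.3 and 21.7 CPM in knockdown, so that knockdown library 1 lay above and the other two below all controls. The 3 subunits of eIF2, which carries the initiator tRNA, summed to 69.4, 79.0 and 59.0 CPM in control and 94.2, 79.8 and 54.4 CPM in knockdown. EIF2S1, the subunit phosphorylated in stress, had a log2 fold change of -0.18 ± 0.31, EIF2S2 of 0.0076 ± 0.63 and EIF2S3 of 0.40 ± 0.27 (SE). EIF2S2 held only 31 to 177 counts per library.

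Summed over its 6 genes, this group had 319, 302 and 387 CPM in control and 238, 199 and 219 CPM in knockdown, with no overlap. Without EIF1AX and EIF5 the remaining 4 genes summed to 108, 112 and 88.1 CPM in control and 147, 101 and 76.1 CPM in knockdown, and the groups overlapped. The genes left out were those of this group with no overlap of their own, so this sum is only a description. No background was computed for such sums. In the other 5 role groups the summed levels overlapped between control and knockdown, as the plot of summed footprints by role shows.

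**Figure D3:**
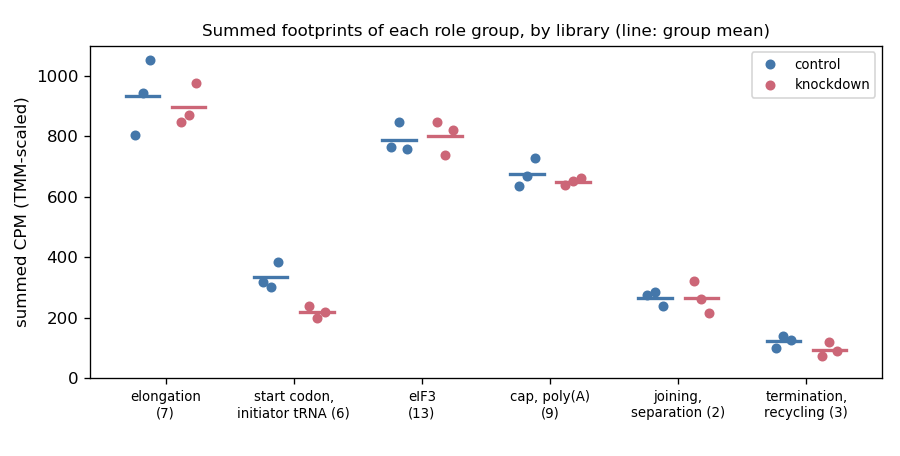
Summed TMM-scaled CPM of the members of each role group in each library (points; number of genes in brackets), with group means (lines), n = 3 each. The start codon and initiator tRNA group has 302 to 387 CPM in control and 199 to 238 CPM in knockdown, and in the other 5 groups control and knockdown overlap.

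eIF3 is the largest initiation factor, a complex of 13 named subunits that bridges the small ribosomal subunit and eIF4F. Of its 12 tested subunits none passed, 5 had a positive and 7 a negative log2 fold change, and the median was -0.14. Their summed level was 764, 846 and 757 CPM in control and 846, 739 and 822 CPM in knockdown. EIF3F (ENSG00000175390.14_6), a subunit with an MPN domain, came nearest to the threshold. It had 61.8, 71.4 and 49.8 CPM in control and 101, 90.4 and 98.8 CPM in knockdown, and the groups did not overlap. The log2 fold change was 0.66 (95% interval 0.17 to 1.16) with an adjusted p of 0.146 in edgeR, and no alternative brought it under the threshold (lowest 0.0522).

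EIF3L was the other eIF3 subunit whose groups did not overlap, with 27.7, 23.0 and 27.1 CPM in control and 20.2, 18.7 and 15.7 CPM in knockdown. Its log2 fold change was -0.51 ± 0.28 (SE), adjusted p = 0.42 in edgeR. EIF3J, a loosely bound subunit that helps recycling, had the most negative value of the complex, -0.87 ± 0.51 (SE), on 43 to 128 counts per library, and its groups overlapped. EIF3E, like EIF3L a subunit with a PCI domain, had 41.9, 38.1 and 23.7 CPM in control and 19.8, 23.9 and 25.6 CPM in knockdown.

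EIF3A, EIF3B and EIF3I, like EIF3F, varied little among the knockdown libraries. EIF3A, the largest, had 66.7, 69.8 and 66.8 CPM in knockdown, a coefficient of variation of 2.59%, and 47.7, 56.2 and 74.5 CPM in control (23.0%). EIF3B had a log2 fold change of 0.072 ± 0.25 and EIF3I of -0.11 ± 0.22 (SE). The 95% interval of EIF3I, -0.59 to 0.37, lay within a 2-fold change. The remaining tested subunits EIF3D, EIF3G, EIF3H, EIF3K and EIF3M ran from -0.25 (EIF3M) to 0.63 (EIF3G) with overlapping groups, and for EIF3G 1 library, knockdown library 1 at 74.2 CPM, stood apart from 40.8 and 36.8 CPM in the other two. Without knockdown library 1 its value was 0.24.

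Among the elongation factors none of the 6 tested passed. EEF2 (ENSG00000167658.16_5), which moves the ribosome by 1 codon, had 349, 501 and 610 CPM in control and 404, 445 and 462 CPM in knockdown, a log2 fold change of -0.16 (95% interval -0.69 to 0.37). All knockdown values lay inside the control range. EIF5A, which helps ribosomes through slow peptide bonds, had 364, 300 and 288 CPM in control and 228, 292 and 318 CPM in knockdown, a log2 fold change of -0.18 (95% interval -0.67 to 0.30). Both intervals lie within a 2-fold change.

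EEF1D (ENSG00000104529.17_10) and EEF1B2 encode the exchange subunits that reload eEF1A with GTP. EEF1D had the largest positive value of all 37 factors. It had 20.2, 77.6 and 83.5 CPM in control and 148, 80.6 and 114 CPM in knockdown, a log2 fold change of 0.91 ± 0.43 (SE) that did not pass (adjusted p = 0.317 in edgeR). Control library 1 was far below the other two, and without it the value dropped to 0.50. EEF1B2 had counts that gave 55.4 ± 4.0 CPM in the controls (SD, n = 3) and a log2 fold change of -0.15 ± 0.27 (SE), with overlapping groups.

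EEF1A1, the general form of the factor that carries aminoacyl-tRNA, had only 75 to 179 counts per library, at a mean of 9.9 ± 1.6 CPM in the controls and 11.6 ± 3.3 CPM after knockdown (SD, n = 3 each). RefSeq names 50 EEF1A1 pseudogenes, and how the authors treated reads that match several places is not given in the sources used here, so this level is uncertain. EEF1A2, its muscle and neuron paralogue, had 18 to 103 counts per library. It had 3.3, 5.3 and 2.0 CPM in control and 5.4, 5.7 and 8.3 CPM in knockdown. The groups did not overlap, though by a small margin, and the log2 fold change was 0.88 ± 0.65 (SE), adjusted p = 0.587 in edgeR.

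The remaining factors act at subunit joining, termination and recycling. EIF5B, the GTPase that joins the subunits, stood at 19.6 ± 9.4 CPM in control and 23.2 ± 6.0 CPM in knockdown, and EIF6, which keeps free large subunits from joining, at 247 ± 26 and 244 ± 58 CPM (SD, n = 3 each). ETF1 (ENSG00000120705.13_6), the release factor eRF1 that reads all stop codons, had 25.4, 41.6 and 36.2 CPM in control and 22.3, 22.5 and 17.4 CPM in knockdown. The groups did not overlap, and the log2 fold change was -0.73 (95% interval -1.36 to -0.10), with an adjusted p of 0.221 in edgeR and none under the threshold in any alternative. Its partner GTPase GSPT1 (eRF3a) had 49.1, 59.3 and 60.0 CPM in control and 31.2, 47.5 and 59.7 CPM in knockdown. The ribosome splitter ABCE1 had 32.1 ± 5.5 CPM in control (SD, n = 3) but 20.2, 51.8 and 13.9 CPM in knockdown, so 1 knockdown library lay above the controls and 2 lay below.

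Of the 40 factors, 3 had too few counts to test. EEF1G, the remaining structural subunit of the eEF1 complex, had 0 counts in all 6 libraries, and a count of 0 allows up to 3 counts, or 0.197 to 0.407 CPM depending on the library. EIF3C had 1 count in all, in knockdown library 2. EIF4A1, the main eIF4A isoform, had 1, 0 and 0 counts in control and 0, 8 and 1 in knockdown. The labels' line is a dividing human cell, in which these genes are widely known to be expressed. In RefSeq EIF4A1 overlaps the readthrough gene SENP3-EIF4A1 and has 13 named pseudogenes, EEF1G has 8 and EIF3C has 0. A near-identical neighbour copy of EIF3C is known, but gene copies were not compared here. Named pseudogenes are not particular to these genes. PABPC1 also has 13, and EEF1B2 and EEF1D have 8 each, at 149 or more counts in every library. EEF1A1, with 50, had 75 to 179 counts. Whether reads of EEF1G, EIF3C and EIF4A1 were assigned elsewhere was not tested. The values of the 3 genes are not read as levels of expression, and the change of EIF4A2 cannot be set beside that of EIF4A1.

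Genes of this class often hold small nucleolar RNAs in their introns. By position in the RefSeq table, 9 of the 40 factors span at least 1 small nucleolar or Cajal body RNA gene, and 8 of these were tested. EIF4A2 spans 5 (SNORA4, SNORA63, SNORA63B, SNORA81 and SNORD2), EIF5 spans SNORA28 and EIF1AX spans SCARNA9L. In the reported fit these 3 had the 3 most negative log2 fold changes of the 37 factors. That order depended on single libraries. Without control library 3, EIF3J, which spans no such RNA, stood at -1.16, below EIF1AX at -0.88 and EIF5 at -0.84. The other 5 tested hosts were spread around 0, with EEF2 (SNORD37) at -0.16, EEF1B2 (SNORA41, SNORD51) at -0.15, EIF4G2 (SNORD97) at -0.36, EIF3A (SNORA19 and LOC124900296) at 0.19 and EIF4G1 (SNORD66) at 0.47. The median was -0.26 over the 8 hosts and -0.022 over the 29 others. This split was not planned and genes are not independent replicates, so it is given as a description. The share of such hosts among all genes was not computed. Counts per gene do not show whether reads fell on coding sequence or on a nested RNA, and the part of nested RNAs in these values was not tested. EIF1AX also overlaps the antisense gene EIF1AX-AS1, and EIF5 overlaps EIF5-DT, and the use of strand in counting is not given in the sources used here.

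**Figure D4:**
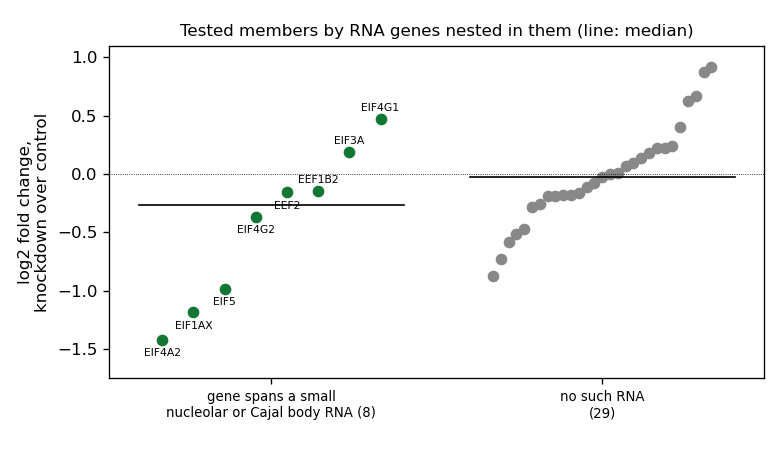
Log2 fold change (knockdown over control) of the 37 tested translation factors, split by whether the RefSeq gene spans a small nucleolar or Cajal body RNA gene, with medians (lines). The hosts EIF4A2 (-1.42), EIF1AX (-1.18) and EIF5 (-0.98) are the 3 lowest points, and the other 5 hosts lie between -0.36 and 0.47.

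The factors kept much the same order of counts in all libraries. Over the 37 factors, Pearson's r of log2 CPM was 0.919 to 0.970 between control libraries, 0.922 to 0.937 between knockdown libraries and 0.869 to 0.943 between groups. Genes are not independent replicates, and gene length is shared by all libraries, so these are descriptions. The 5 factors with the most counts (EEF2, EIF5A, EIF6, EIF4G2 and EIF3I) took 46.0% to 47.7% of the factors' counts in control and 43.1% to 46.5% in knockdown. The median coefficient of variation within a group was 18.9% in control and 24.1% in knockdown over the 37. It was 32.6% and 35.6% over all features tested, and 19.3% and 18.2% over the most abundant 20% of these, which hold only 24 of the 37.

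How far the named values depend on the processing is shown by the plot of settings. EIF4A2, EIF5, EIF1AX and ETF1 had negative values and EIF3F a positive value under all 18 alternatives, a direction that groups with no overlap could hardly lose. EIF4A2 passed in 14 of 18, EIF5 in 10, EIF1AX in 6, and EEF1D in 1, the fit without a low-count filter. The other 33 of the 37, ETF1 and EIF3F among them, passed in none, and 17 of the 37 had the opposite sign in at least 1.

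**Figure D5:**
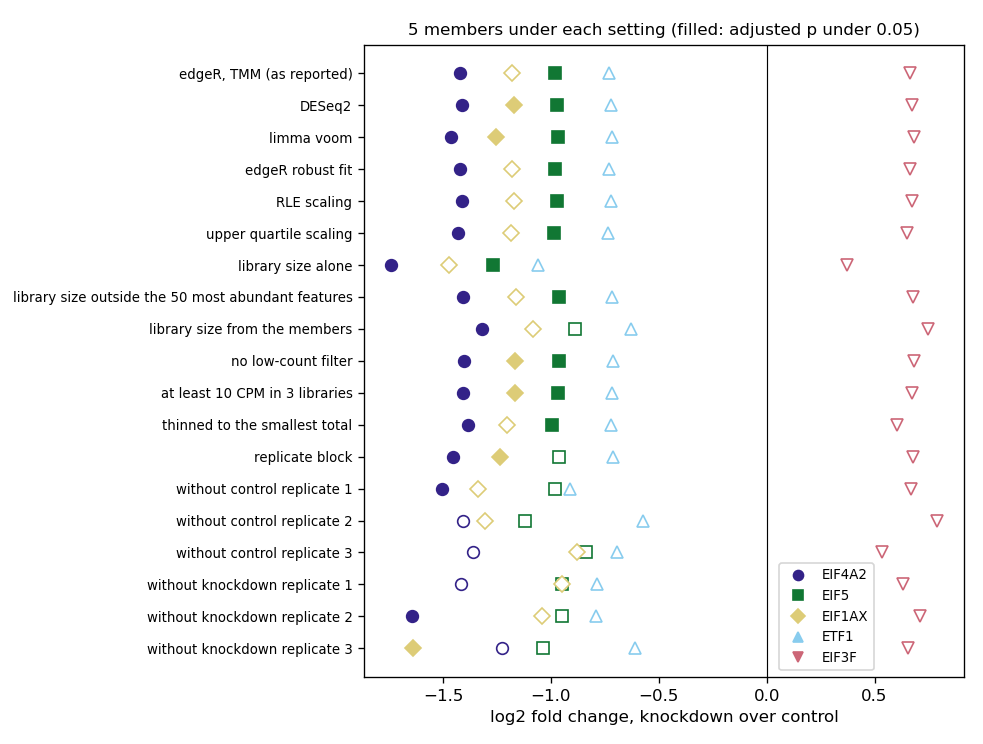
Log2 fold change (knockdown over control) of 5 translation factors under the reported edgeR fit and 18 alternatives, with filled symbols at an adjusted p under 0.05. EIF4A2 stays between -1.74 and -1.23 and EIF5 between -1.27 and -0.84, and EIF5 is filled in none of the 6 fits that leave out a library.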

How the data were processed

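Ribosome footprints were measured in 6 libraries, 3 per group. The authors deposited raw read counts per Ensembl gene ID, whole numbers with unequal totals and no sign of normalisation. The submitters' processing notes name fastp, Bowtie 1.3.1 and hg38. For counting, annotation, read filters, multi-mapped reads and strand, the method is not given in the sources used here. Per the labels' protocols, RNase I digestion, a sucrose gradient, adapter ligation, rRNA depletion and gel selection preceded PCR, and no molecular identifiers are described. Columns named for a vector were matched to the control samples through assay and replicate number. The 6 further columns, named for RNA, were not used, so translation efficiency was not computed.

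Features kept by filterByExpr (11653) were scaled by TMM and tested with edgeR 4.0.16 (glmQLFit, glmQLFTest, two-sided, Benjamini-Hochberg, threshold 0.05) in R 4.3.3, over all 6 libraries. The fit was first run on simulated data, and no result of that run is given here. DESeq2 1.42.0, limma 3.58.1 with voom, other scalings and filters, thinning, a replicate block and leaving out each library were alternatives. Intervals (95%) of fold changes come from the edgeR fit, and the limit for a count of 0 (3 counts) covers counting error only.

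Members and lists were chosen with earlier results of these data known. Values per library are given for factors past the threshold, those with groups that did not overlap and an unadjusted p under 0.05, the largest change in each role group, the 5 with the highest CPM, and further members chosen after their values were seen. IDs are paired with symbols for the 40 members only. Other translation genes, cell type markers and TRMT61A itself, planned by symbol, were therefore not analysed here, nor were levels per codon, for want of protein lengths. Sequences and gene neighbours come from RefSeq (GRCh38.p14). ID suffixes have the form used for annotation carried over to GRCh37, so no coordinates were taken from the files.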

Additional observations from a re-analysis of the deposited data

How the results depend on the processing

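Of 659 recomputed fold changes of single factors, 0 reversed a call, 12 lost one and 7 gained one. Leaving out 1 library gave 0 to 1 called factors, against 2, and 47 to 171 called features among all tested, against 364. The factors called were 1 (EIF4A2) when libraries were scaled on the factors' own sum and 4 (EEF1D, EIF1AX, EIF4A2 and EIF5) without a low-count filter. Over all features, the calls numbered 799 in DESeq2, 735 without a low-count filter and 602 with at least 10 CPM in 3 libraries. With library size alone the median of all features moved to -0.30 and that of the factors to -0.43, and the calls were 63 higher and 334 lower, against 173 and 191. Scaled on the factors' own sum they were 223 higher and 146 lower. The replicate block left 208 calls, with EIF5 at adjusted p = 0.0727 and EIF1AX at 0.0377 in edgeR. Same-numbered libraries deviated together at r = -0.0039, -0.017 and 0.050, so the numbers were not taken as pairs. What causes these shifts was not tested. Depth limits EEF1A1, EEF1A2, EIF2S2, EIF3J, EIF4B and EIF4E, which had at most 179 counts in any library.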
